A study of Mus musculus with 24 samples.

Results

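Ubiquitin-conjugating enzymes (E2s) take activated ubiquitin from an E1 enzyme and pass it, usually together with an E3 ligase, to a target protein. Different E2s start chains, extend them through one lysine of ubiquitin, or carry ubiquitin-like proteins such as NEDD8. In the mammalian oocyte, transcription stops before meiosis resumes, and much of the stored maternal mRNA is then removed during maturation. Any E2 newly made in the egg is therefore translated from stored transcripts. Protein was not measured here. The transcripts described here are those of all genes in the deposited table whose symbol starts with Ube2, apart from Ube2c and Ube2s. They are 33 of the 23235 genes listed. Ube2cbp is kept by this rule although its name marks it as a protein that binds an E2, and Ube2v1 and Ube2v2 are E2 variants that lack the catalytic cysteine.

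The libraries came from C57BL/6 mice and hold 12 groups of 2, made up of 3 genotypes and 4 stages. The genotypes were Cnot6l-/-, a group labelled Btg4-/- and wild type (WT), all with females at postnatal day 21 per the labels. Cnot6l encodes a deadenylase that removes poly(A) tails as part of CCR4-NOT, and Btg4 encodes a protein that brings this complex to maternal mRNA. The stages were germinal vesicle (GV) oocytes taken 48 h after PMSG, oocytes in the first meiotic division (MI) after 8 h of culture, eggs in the second (MII) after 16 h of culture, and zygotes taken 24 h after hCG. No other allele or agent is given for these groups, and the labels do not describe the alleles. The protocol gives 100 oocytes per library, while the description of the series gives 2. The study's comparisons address how maternal transcripts fall from the GV stage onward and how far they fall when either gene is missing.

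Values are FPKM as the authors deposited them, that is, fragments scaled by transcript length and library size. Their sum over all genes ranged over 422039 to 545784 in the GV libraries and 49930 to 180847 in the zygote libraries, which no common total could give, and read depth is unknown. Cnot6l had 3.4 to 7.26 FPKM in the 8 Cnot6l-/- libraries, against 7.07 to 73.92 FPKM in the 8 WT libraries. Btg4 had 764.77 to 2515.06 FPKM in the libraries labelled Btg4-/-, against 553.86 to 2489.88 FPKM in WT, so its transcript does not check that label. All 8 oocyte markers averaged 1 FPKM or more in each of the groups; summed cumulus and granulosa cell markers stayed at 1.48 to 27.73 FPKM and summed sperm markers at 0.79 to 81.2 FPKM. In bulk samples, fewer cells and less RNA per cell cannot be told apart. The labels do not say whether the 2 libraries of a group came from separate animals, and the p-values cover no more than the differences among libraries, which may be technical.

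Two-sided limma tests on log2(FPKM + 1) were run over the 10884 genes that averaged 1 FPKM or more in some group, and a gene was called at a Benjamini-Hochberg adjusted p under 0.05. Of the 33 members, 32 were tested. Ube2ql1 never passed 0.5 FPKM in any library, and Ube2dnl passed the filter only through the Cnot6l-/- GV libraries. Because most genes moved together between stages, each count was also taken after median-ratio scaling, which divides each library by its median ratio over the 3677 genes that every library lists above 1 FPKM. A scaled change is relative to those genes.

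The 33 transcripts spanned a wide range of levels, led by Ube2d3 and Ube2t. In WT GV oocytes Ube2d3 averaged 856 ± 486 FPKM, Ube2t 603 ± 96.3 FPKM, Ube2w 162 ± 93.2 FPKM and Ube2a 130 ± 50.3 FPKM (SD, n = 2 each). The values of Ube2d3 and Ube2t differed by less than their spread, as did those of Ube2w and Ube2a. Another 14 members lay between 10 and 100 FPKM, 12 between 1 and 10 FPKM, and Ube2dnl and Ube2ql1 under 1 FPKM. At MII, 4 members averaged under 1 FPKM in Cnot6l-/- eggs and 7 in eggs labelled Btg4-/-, against 16 in WT eggs. The sum over all genes averaged 190242.5 and 167822.5 FPKM in those 2 groups, against 98984.5 FPKM in WT. The share of all genes under 1 FPKM was not taken, so these counts cannot be told apart from a shift of the whole table.

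**Figure D1:**
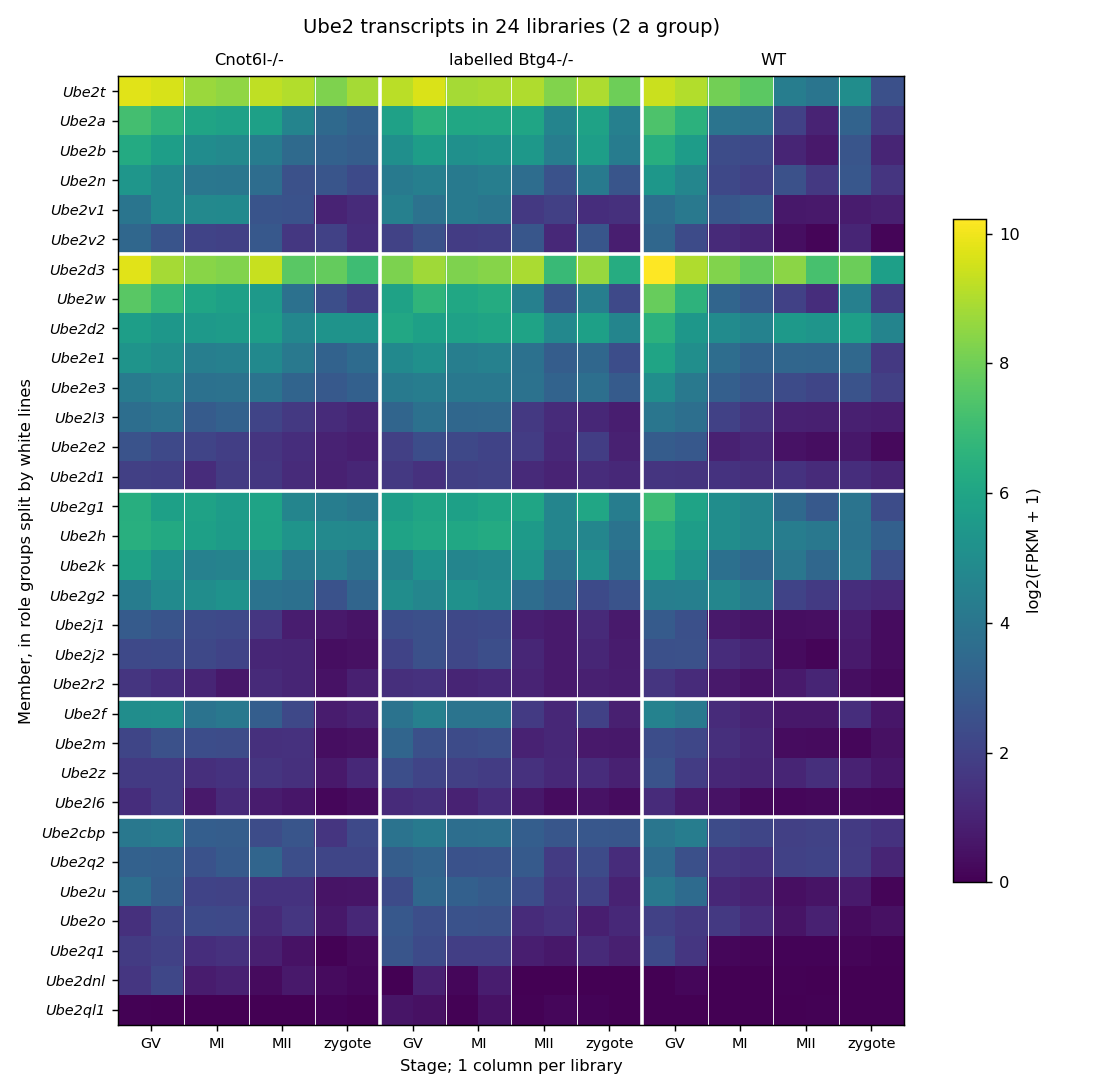
Levels of 32 Ube2 transcripts as log2(FPKM + 1), with 1 column per library in the order Cnot6l-/-, labelled Btg4-/- and WT and stages GV to zygote within each; white horizontal lines split the role groups. The Ube2t row stays bright through the zygote in Cnot6l-/- and labelled Btg4-/- libraries and darkens at MII in WT, while the Ube2d3 row is bright in all groups.

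Summed over members, MII eggs held 1767 and 989 FPKM in Cnot6l-/- and 1474 and 650 FPKM in the labelled Btg4-/- group, against 535 and 301 FPKM in WT. The sums over all genes were 199462 and 181023, 194890 and 140755, and 94791 and 103178 FPKM in the same order. As shares of these, the members held 0.8857% and 0.5462% in Cnot6l-/-, 0.7564% and 0.4621% in the labelled Btg4-/- group, and 0.564% and 0.2915% in WT, which overlapped. At the GV stage the sums were 2809 and 2093 FPKM in Cnot6l-/- and 1519 and 2045 FPKM in the labelled Btg4-/- group, against 3142 and 1784 FPKM in WT, and the groups overlapped. Ube2t made up 34.3% and 52.9% of the member sum in Cnot6l-/- MII eggs and 35.4% and 47.4% in eggs labelled Btg4-/-, against 3.58% and 4.85% in WT MII eggs. Without Ube2t, the members held 0.582% and 0.257% of all FPKM in Cnot6l-/- MII eggs and 0.489% and 0.243% in eggs labelled Btg4-/-, against 0.544% and 0.277% in WT MII eggs. Those shares overlapped between all 3 genotypes. In each MII group the library numbered 1 had the higher member sum, and in the 9 groups at GV, MII and zygote Ube2d3, Ube2w, Ube2a and Ube2b were higher in library 1 in 8. Fits were repeated without each library in turn and with the library number as a block.

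In WT oocytes nearly all members fell early. At MI, 27 of the 32 members were lower than at GV, against 65.1% of all genes tested called lower; the members' median log2 change was -1.63, and that of all genes -0.95. At MII, 28 members were lower than at GV, against 83.4% of all genes, with medians of -2.25 for members and -1.37 for all genes. After scaling, 2 members were higher and 13 lower at MI, where 15.2% of genes were called higher and 30.5% lower, and 3 were higher and 18 lower at MII, where 14.9% of genes were higher and 43.2% lower. Between WT zygotes and WT MII eggs, limma called no member, with 2 at an unadjusted p under 0.05, while 4.25% of all genes were called; after scaling 3 members were higher and 1 lower, where 15% of genes were higher and 4.86% lower.

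The other genotypes were compared over the same interval. In Cnot6l-/- oocytes 18 members were lower at MII than at GV, against 59.9% of all genes, and in the labelled Btg4-/- group 21 were lower, against 75.3% of all genes. The 18 include Ube2dnl, whose fall is no test, since it passed the filter only through the Cnot6l-/- GV libraries. No member was higher in these comparisons within a genotype. The median log2 changes were -0.90 in Cnot6l-/- and -0.89 in the labelled Btg4-/- group, where all genes had medians of -0.82 and -1.04. After scaling, 6 members were lower in Cnot6l-/- and 7 in the labelled Btg4-/- group, where 23.4% and 29.7% of genes were lower. Without library 2 of the MII eggs labelled Btg4-/-, fewer members were called in that group, and fewer of all genes. The difference itself was tested as an interaction. The MII over GV change was higher in Cnot6l-/- than in WT for 12 members and lower for 1 (24.1% of genes higher and 0.717% lower), and higher in the labelled Btg4-/- group than in WT for 9 members (13.3% of genes). The lower 1 was Ube2dnl, which again passed the filter only through those GV libraries. The 13 interaction calls of Cnot6l-/- numbered 8 without WT GV library 1, WT MII library 2, Cnot6l-/- GV library 1 or Cnot6l-/- MII library 1. Those of the labelled Btg4-/- group numbered 5 without WT GV library 1, either WT MII library, or library 1 of its own GV oocytes or MII eggs.

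Set against WT at the same stage, members were called higher mostly from MI onward. At GV, 1 of 32 members was higher in Cnot6l-/- (6.06% of genes were higher) and none was called in the labelled Btg4-/- group (7.43% of genes called in either direction), where 5 members had an unadjusted p under 0.05. At MI, 20 members were higher in Cnot6l-/-, against 60.3% of genes, and 24 in the labelled Btg4-/- group, against 68.7% of genes. The 20 include Ube2dnl, which is no independent result, since it passed the filter only through the Cnot6l-/- GV libraries. At MII, 19 were higher in Cnot6l-/-, against 44.3% of genes, and 14 in the labelled Btg4-/- group, against 28.3% of genes. In zygotes 3 were higher in Cnot6l-/-, against 8% of genes, and 10 in the labelled Btg4-/- group, against 21.5% of genes. Both zygote counts were 0 when limma was fitted on only the libraries compared, where 4 and 8 members had an unadjusted p under 0.05 and 5 and 0 of all genes were called. No member was called lower in any of these comparisons when all libraries were fitted. Without library 2 of the labelled Btg4-/- GV oocytes, the calls in that group at GV went in both directions. The same held for Cnot6l-/- at GV without WT GV library 2. Both GV counts also moved without WT GV library 1, and that of Cnot6l-/- without its own GV library 1, with higher calls only.

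At MII the members' median difference from WT was 0.97 in Cnot6l-/- and 0.77 in the labelled Btg4-/- group, with all-gene medians of 0.56 and 0.38. At MI the medians were 0.95 and 1.14 for members and 0.87 and 0.99 for all genes, so members and other genes lay close together there. After scaling, 19 members were higher and 2 lower in Cnot6l-/- MII eggs (34.3% and 8.69% of genes), and 11 were higher and 3 lower in MII eggs labelled Btg4-/- (21.8% and 6.55% of genes). At MI the scaled counts were 9 higher and 1 lower in Cnot6l-/- (35.8% and 11% of genes) and 8 higher in the labelled Btg4-/- group (32.5% of genes). In zygotes they were 3 higher and 1 lower in Cnot6l-/- (8% and 7.91% of genes) and 6 higher and 1 lower in the labelled Btg4-/- group (11.7% and 3.04% of genes). With 1 library left out, both unscaled MII counts went down most without library 1 of the group. That of the labelled Btg4-/- group also went down without WT library 2. The MI count of Cnot6l-/- went down most without WT MI column 3. The zygote count of the labelled Btg4-/- group went down most without WT library 2 or its own library 1. That of Cnot6l-/- zygotes went up without WT library 1. Without Cnot6l-/- MII library 1 or WT MI column 3, fewer of all genes were called too.

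**Figure D2:**
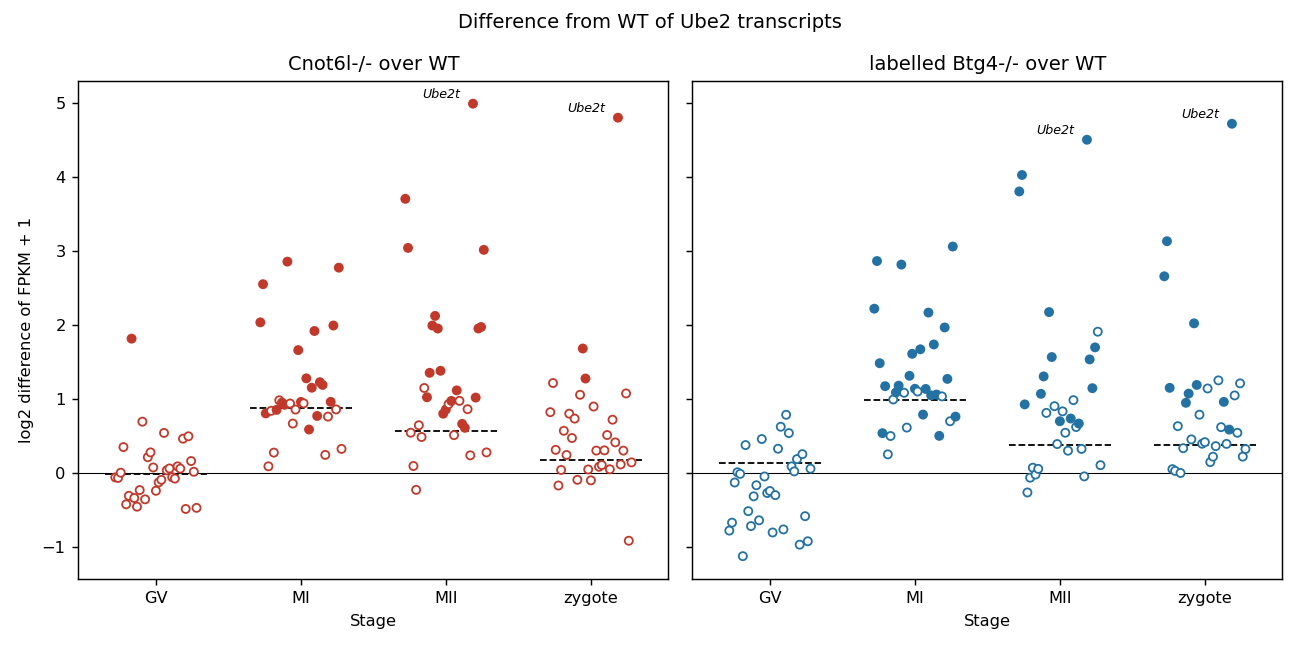
Difference from WT in log2(FPKM + 1) of 31 Ube2 transcripts at 4 stages, for Cnot6l-/- (left) and the labelled Btg4-/- group (right); filled points were called by limma and the dashed line is the median of all genes tested. Ube2t is the highest point at MII and in zygotes in both panels, at 4.99 and 4.80 for Cnot6l-/- and 4.50 and 4.72 for the labelled Btg4-/- group.

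The E2s of lysine-63 chains and DNA damage tolerance are Ube2t, Ube2a, Ube2b, Ube2n, Ube2v1 and Ube2v2. All 6 were lower in WT at MI and at MII than at GV, where 65.1% and 83.4% of all genes were lower, and their median log2 change at MII was -4.16, with an all-gene median of -1.37. At MII, 5 of the 6 were higher in Cnot6l-/- than in WT, with a median of 2.51, and 5 of the 6 in the labelled Btg4-/- group, with a median of 2.75. Of all genes 44.3% and 28.3% were higher there, with medians of 0.56 and 0.38. The group was drawn up with earlier results of these data known, so these figures describe it and test nothing.

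Ube2t (chromosome 1, 136859153 to 136870714, plus strand, mm9) is the E2 of the Fanconi anaemia pathway, which marks FANCD2 and FANCI with single ubiquitins during the repair of DNA crosslinks. At GV it had 875.43 and 781.19 FPKM in Cnot6l-/- and 582.33 and 800.47 FPKM in the labelled Btg4-/- group, against 671.26 and 535.10 FPKM in WT. At MI it had 407.22 and 371.84 FPKM in Cnot6l-/- and 454.79 and 486.56 FPKM in the labelled Btg4-/- group, against 265.49 and 197.51 FPKM in WT. At both stages the transcript was abundant in every library, and at MI both WT libraries lay below the others. At MII it had 606.64 and 522.65 FPKM in Cnot6l-/- and 521.80 and 308.60 FPKM in the labelled Btg4-/- group, against 19.16 and 14.59 FPKM in WT. In zygotes it had 306.70 and 464.10 FPKM in Cnot6l-/- and 503.56 and 252.15 FPKM in the labelled Btg4-/- group, against 31.42 and 4.67 FPKM in WT. Every Cnot6l-/- and labelled Btg4-/- library at these 2 stages lay above every WT library.

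The mean of Ube2t at MII was 68.2% of its GV mean in Cnot6l-/- and 60.1% in the labelled Btg4-/- group, against 2.80% in WT. The MII over GV change in WT was -5.08 ± 0.56 (log2, SE, adjusted p = 2.82e-07). In Cnot6l-/- it was -0.55 ± 0.56 and in the labelled Btg4-/- group -0.77 ± 0.56, neither of them called (adjusted p = 0.390 and 0.213), and each 0.48 after scaling. The interaction with WT was 4.53 ± 0.79 for Cnot6l-/- (adjusted p = 0.000482) and 4.32 ± 0.79 for the labelled Btg4-/- group (adjusted p = 0.00149). Against WT at MII, Ube2t was higher by 4.99 ± 0.56 in Cnot6l-/- (adjusted p = 2.16e-06), rank 13 from the highest of 10884 genes, and by 4.50 ± 0.56 in the labelled Btg4-/- group (adjusted p = 1.43e-05), rank 34. In zygotes it was higher by 4.80 ± 0.56 in Cnot6l-/- (adjusted p = 3.96e-05), rank 2, and by 4.72 ± 0.56 in the labelled Btg4-/- group (adjusted p = 1.78e-05), rank 18. After scaling, the differences from WT were 4.20 and 3.81 at MII and 4.25 and 3.92 in zygotes, all called. The zygote calls were lost when only the libraries compared were fitted (adjusted p = 0.0619 and 0.115), and the WT zygotes differed from each other by more than the WT MII eggs did.

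At MI the difference of Ube2t from WT was 0.76 ± 0.56 in Cnot6l-/- and 1.04 ± 0.56 in the labelled Btg4-/- group, neither of them called (adjusted p = 0.250 and 0.107), and -0.18 in each after scaling. The WT MI over GV change of -1.38 ± 0.56 (adjusted p = 0.0373) became -0.12 after scaling and missed the threshold under each library left out (adjusted p 0.0584 to 0.175).

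**Figure D3:**
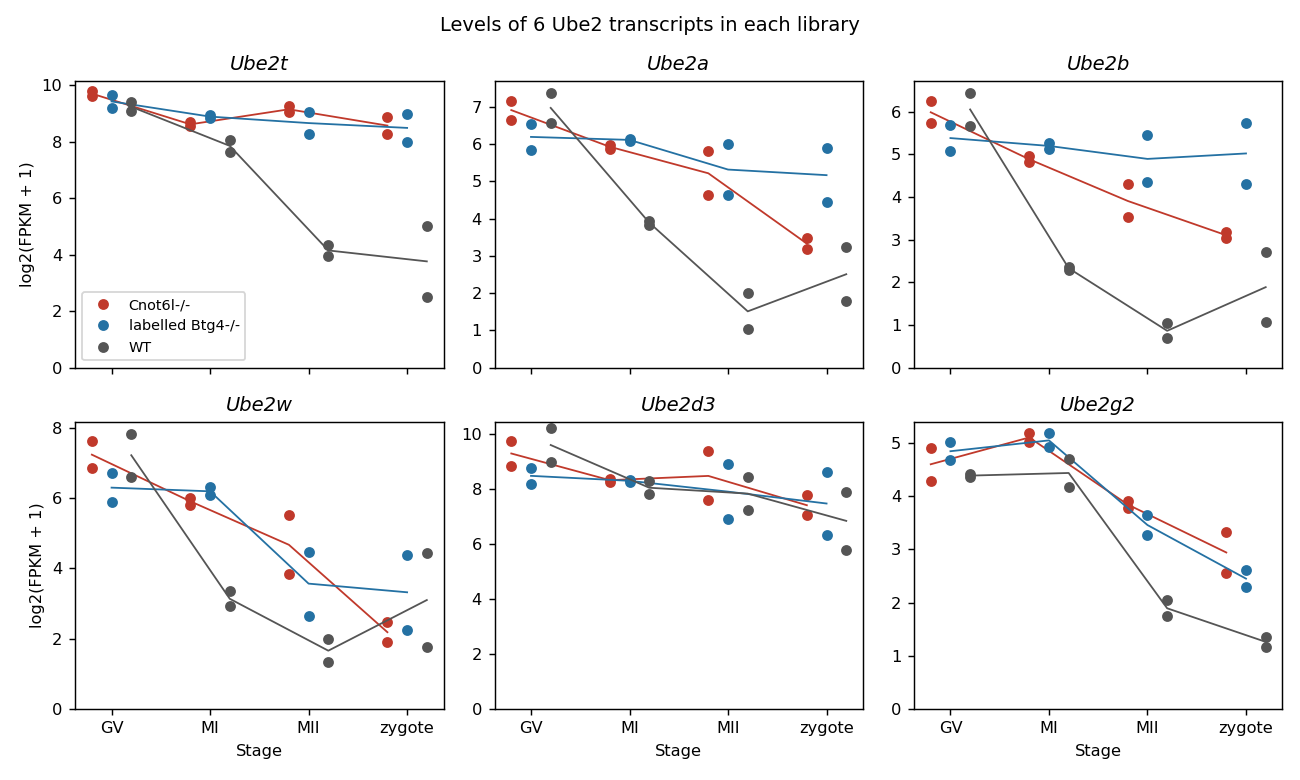
Log2(FPKM + 1) of 6 members in every library by stage, in red for Cnot6l-/-, blue for the labelled Btg4-/- group and grey for WT; points are libraries and lines join the means of 2. Ube2t in WT lies below both other groups by 4 units or more of mean at MII and in zygotes, while the WT points of Ube2d3 lie among or close to the others at those stages.

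The 3′ end of Ube2t is shown because cytoplasmic polyadenylation elements (CPEs) near the polyadenylation signal bind CPEB proteins, which control poly(A) tail length in maturing oocytes. Capitals mark the TTTTAT CPE and the AATAAA signal, on the plus strand of mm9, in 30-base windows of the gencode vM1 transcript. That transcript ends 25 bases beyond the end given in the deposited table, so the signal lies past the deposited end. Ube2g2, another member whose level at MII differed between WT and the other genotypes, has the same CPE in the same range. So does Ube2q2, 62 bases from its signal, which was not called against WT at MII in either group. At MII Ube2q2 had 9.03 and 4.43 FPKM in Cnot6l-/- and 6.52 and 2.44 FPKM in the labelled Btg4-/- group, against 2.96 and 3.16 FPKM in WT. Ube2a, which also fell by over 5 log2 units in WT, has a signal without a CPE, as does the abundant Ube2d3.
Ube2t CPE, chr1:136870658-136870687: aaggatagtttgTTTTATttatcttgtaca
Ube2t signal, chr1:136870706-136870735: ttaaacttgaaaAATAAAtaatacttaatg
Ube2g2 CPE, chr10:77108627-77108656: aaaacaaagtatTTTTATtcatttgtattt
Ube2g2 signal, chr10:77108704-77108733: taattgctgttaAATAAAattgtgtacctg
Ube2a signal, chrX:34424181-34424210: attttcaaaagttgtaAATAAAaaaataac
Ube2d3 signal, chr3:135130108-135130137: gtcacgctaattAATAAAacttttgggttc
In Ube2t, 42 bases separate the CPE from the signal, and in Ube2g2 71. Of 32 members with a 3′ UTR in gencode vM1, 27 had AATAAA or ATTAAA in the last 50 bases. Of those 27, a TTTTAT or TTTTAAT on the transcript's strand within 100 bases upstream of the signal was found in Ube2t, Ube2g2 and Ube2q2, which is 11.1%, against 1492 of 7819 (19.1%) among all genes tested. A match describes these letters only, and its part in the values was not tested.

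Ube2a (chromosome X, 34414360 to 34424215) and Ube2b (chromosome 11, 51798647 to 51813968) encode the mouse RAD6 proteins, which ubiquitinate histone H2B and PCNA; in mice maternal Ube2a is needed for early cleavage. At MII, Ube2a had 55.14 and 23.67 FPKM in Cnot6l-/- and 63.44 and 23.69 FPKM in the labelled Btg4-/- group, against 2.99 and 1.04 FPKM in WT. Ube2b had 18.60 and 10.48 FPKM in Cnot6l-/- and 42.52 and 19.27 FPKM in the labelled Btg4-/- group, against 1.06 and 0.61 FPKM in WT. For both genes every WT egg library lay below every other MII library. The differences from WT at MII were 3.71 ± 0.58 for Ube2a and 3.04 ± 0.52 for Ube2b in Cnot6l-/- (adjusted p = 6.63e-05 and 0.000158), and 3.81 ± 0.58 and 4.03 ± 0.52 in the labelled Btg4-/- group (adjusted p = 0.000108 and 2.26e-05). All of these calls held after scaling (3.15 and 2.65 in Cnot6l-/-, 3.35 and 3.73 in the labelled Btg4-/- group) and with any 1 library left out.

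The fall of both transcripts in WT was already large at MI. At MI, Ube2a had 62.35 and 57.59 FPKM in Cnot6l-/- and 67.19 and 69.33 FPKM in the labelled Btg4-/- group, against 14.42 and 13.31 FPKM in WT. Ube2b had 30.07 and 27.04 FPKM in Cnot6l-/- and 34.09 and 37.31 FPKM in the labelled Btg4-/- group, against 4.15 and 3.92 FPKM in WT. The libraries of WT again lay below all others. The WT changes from GV were -3.08 ± 0.58 for Ube2a and -3.72 ± 0.52 for Ube2b (adjusted p = 0.000194 and 9.63e-06), and both held after scaling (-1.84 and -2.52). Against WT at MI, Ube2a was higher by 2.04 ± 0.58 in Cnot6l-/- and 2.22 ± 0.58 in the labelled Btg4-/- group (adjusted p = 0.00571 and 0.00280), calls that were lost after scaling (1.12 and 1.03, adjusted p = 0.0573 and 0.0835). Ube2b was higher by 2.55 ± 0.52 and 2.86 ± 0.52 (adjusted p = 0.000420 and 0.000128) and kept both calls after scaling (1.68 and 1.73). At GV, Ube2a had 142.70 and 100.07 FPKM in Cnot6l-/- and 56.35 and 92.46 FPKM in the labelled Btg4-/- group, against 165.14 and 93.94 FPKM in WT. At the same stage Ube2b had 74.63 and 52.04 FPKM in Cnot6l-/- and 32.82 and 50.30 FPKM in the labelled Btg4-/- group, against 85.21 and 50.01 FPKM in WT, and neither gene was called at GV. In WT the MII over GV changes were -5.46 ± 0.58 for Ube2a and -5.19 ± 0.52 for Ube2b (adjusted p = 1.94e-07 and 9.82e-08). The means at MII were 32.5% and 23% of the GV means in Cnot6l-/- and 58.6% and 74.3% in the labelled Btg4-/- group, against 1.56% and 1.24% in WT. The Cnot6l-/- changes of -1.70 and -2.08 were called (adjusted p = 0.0186 and 0.00259), that of Ube2a not after leaving out GV library 1 or MII library 2 (adjusted p = 0.108 and 0.204), and neither after scaling (-0.68 and -1.07, adjusted p = 0.313 and 0.0700). Those of the labelled Btg4-/- group were -0.88 and -0.49, had a plus sign after scaling (0.34 and 0.71) and were not called (adjusted p = 0.174 and 0.389); that of Ube2a was called without its MII library 1 (-1.57, adjusted p = 0.0403), and that of Ube2b was 0.06 without MII library 2.

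In zygotes the labelled Btg4-/- libraries lay above all others for this pair. Ube2a had 10.18 and 8.06 FPKM in Cnot6l-/- and 58.59 and 20.68 FPKM in the labelled Btg4-/- group, against 8.45 and 2.43 FPKM in WT. Ube2b had 8.03 and 7.18 FPKM in Cnot6l-/- and 52.59 and 18.65 FPKM in the labelled Btg4-/- group, against 5.55 and 1.09 FPKM in WT. Both genes were higher than in WT in the labelled Btg4-/- group (2.66 ± 0.58 and 3.13 ± 0.52, adjusted p = 0.00320 and 0.000370), and in Cnot6l-/- neither was called (0.82 ± 0.58 and 1.22 ± 0.52, adjusted p = 0.515 and 0.190). Without WT zygote library 1, Ube2b was called in Cnot6l-/- too (2.04, adjusted p = 0.0322). The call of Ube2a in the labelled Btg4-/- group was lost without WT library 2 or without that group's library 1 (1.93 in each, adjusted p = 0.0730 and 0.0788), and both were lost when only the libraries compared were fitted (adjusted p = 0.152 and 0.134).

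Cnot6l-/- was then set directly against the labelled Btg4-/- group, in comparisons added after the values were seen. In zygotes Ube2a was lower in Cnot6l-/- (log2 difference -1.84 ± 0.58, adjusted p = 0.0426), as was Ube2b (-1.92 ± 0.52, adjusted p = 0.0195). Ube2cbp (-0.84 ± 0.24) and Ube2q1 (-0.91 ± 0.21) were the other members called lower there (adjusted p = 0.0267 and 0.00672), against 12.8% of genes. The calls of Ube2a and Ube2b were lost without library 1 of the labelled Btg4-/- zygotes (-1.11 and -1.19, adjusted p = 0.409 and 0.275) and without either Cnot6l-/- zygote library (adjusted p 0.0831 to 0.165). Ube2cbp missed the threshold without Cnot6l-/- library 1 (adjusted p = 0.308) or either labelled Btg4-/- library (adjusted p = 0.135 and 0.0656), and Ube2q1 without library 1 of either group (adjusted p = 0.0814 and 0.0959). Thus no member was called without library 1 of either group, and 2 were called without Cnot6l-/- library 2. At GV, Ube2o was lower (12.4% of genes) and Ube2dnl, which entered the test only through the Cnot6l-/- GV libraries and so had to differ, was called higher (5.85% of genes), with 1 call left without GV library 1 of either group and 4 without labelled Btg4-/- GV library 2; at MI no member was called (10.1% of genes called; 5 members at an unadjusted p under 0.05), and at MII Ube2f was higher (11% of genes). The MII call of Ube2f, 1.18 ± 0.36 (adjusted p = 0.0362), was lost without Cnot6l-/- library 1 and without library 2 of the other group (adjusted p = 0.380 and 0.291).

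Ube2n encodes the enzyme that builds lysine-63 chains, and it does so only in complex with UBE2V1 or UBE2V2. Near-identical copies of Ube2n and Ube2v1 exist elsewhere in the mouse genome, which leaves the level of each uncertain. At MII, Ube2n had 11.68 and 4.85 FPKM in Cnot6l-/- and 11.61 and 4.96 FPKM in the labelled Btg4-/- group, against 4.85 and 2.28 FPKM in WT. Ube2v1 had 5.37 and 4.91 FPKM in Cnot6l-/- and 2.23 and 2.81 FPKM in the labelled Btg4-/- group, against 0.56 and 0.61 FPKM in WT, and Ube2v2 had 6.06 and 2.15 FPKM in Cnot6l-/- and 5.69 and 1.27 FPKM in the labelled Btg4-/- group, against 0.30 and 0.11 FPKM in WT. Both partner transcripts stood above WT in every library, whereas the lower Cnot6l-/- value of Ube2n equalled the higher WT value. The WT changes at MII over GV were -2.93 ± 0.52 for Ube2n, -3.24 ± 0.26 for Ube2v1 and -2.60 ± 0.58 for Ube2v2, all called lower (adjusted p = 6.45e-05, 6.59e-09 and 0.000554). Against WT at MII, Ube2v1 was higher in Cnot6l-/- (1.95 ± 0.26, adjusted p = 1.48e-05) and in the labelled Btg4-/- group (1.15 ± 0.26, adjusted p = 0.00315; 0.89 and not called after scaling, adjusted p = 0.0614). Ube2v2 was higher in both (1.97 ± 0.58 and 1.70 ± 0.58, adjusted p = 0.0101 and 0.0351), but without library 1 of either group its call was lost (adjusted p = 0.143 and 0.436), as it was without WT library 2 (adjusted p = 0.0625 and 0.158) and, in the labelled Btg4-/- group, without WT library 1 (adjusted p = 0.101). Ube2n was not called at MII in either group (0.98 ± 0.52 in each, adjusted p = 0.137 and 0.178). At MI it was higher in Cnot6l-/- and in the labelled Btg4-/- group (1.92 ± 0.52 and 2.17 ± 0.52, adjusted p = 0.00389 and 0.00139).

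The broad-range and chain-starting E2s are Ube2d1, Ube2d2, Ube2d3, Ube2e1, Ube2e2, Ube2e3, Ube2l3 and Ube2w. In WT, 6 of the 8 were lower at MI and 5 at MII than at GV, against 65.1% and 83.4% of all genes. At MII, 4 were higher in Cnot6l-/- than in WT and 2 in the labelled Btg4-/- group, against 44.3% and 28.3% of all genes.

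Ube2d3 (chromosome 3, 135101722 to 135130142) encodes a UBCH5 enzyme that works with many RING ligases, and its 3′ end is printed above. Near-identical copies make its level uncertain. At GV it had 862.25 and 464.04 FPKM in Cnot6l-/- and 293.48 and 439.09 FPKM in the labelled Btg4-/- group, against 1199.02 and 512.02 FPKM in WT. At MII it had 666.34 and 192.57 FPKM in Cnot6l-/- and 482.30 and 119.70 FPKM in the labelled Btg4-/- group, against 348.67 and 150.05 FPKM in WT. All 3 genotypes overlapped at MII, and within each the library numbered 1 was the higher. The WT change was -1.56 ± 0.84 at MI and -1.77 ± 0.84 at MII (adjusted p = 0.110 and 0.0587), and the MII change was 0.16 after scaling. It was called at MII without WT GV library 2 or without WT MII library 1 (adjusted p = 0.0397 and 0.0466) and with the library number as a replicate block (adjusted p = 0.00784), and at MI when only the libraries compared were fitted (adjusted p = 0.0344). Against WT at MII it differed by 0.65 ± 0.84 in Cnot6l-/- and 0.07 ± 0.84 in the labelled Btg4-/- group (adjusted p = 0.564 and 0.979). These differences had a minus sign after scaling (-0.18 and -0.66, not called).

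Its relatives Ube2d1 and Ube2d2 kept more of their GV level in WT eggs. Ube2d2, for which near-identical copies also exist, had 62.0% of its WT GV mean at MII. At MII its values were 50.30 and 25.30 FPKM in Cnot6l-/- and 60.43 and 26.59 FPKM in the labelled Btg4-/- group, against 44.42 and 39.74 FPKM in WT, with WT inside the range of both. Ube2d1 had 2.19 and 1.40 FPKM in Cnot6l-/- and 1.32 and 1.01 FPKM in the labelled Btg4-/- group, against 1.81 and 1.39 FPKM in WT. The Ube2d1 libraries of Cnot6l-/- and WT overlapped. Neither gene was called in WT at MII against GV (-0.19 for Ube2d1 and -0.56 for Ube2d2, adjusted p = 0.340 and 0.285; 0.03 for Ube2d2 without WT GV library 1). At MI Ube2d2 was lower than at GV (-1.26 ± 0.49, adjusted p = 0.0334), a call that was lost after scaling (-0.02) and without WT GV library 1 or either WT MI library (adjusted p 0.0509 to 0.351). After scaling both were higher at MII than at GV, by 1.03 for Ube2d1 (adjusted p = 5.21e-05) and 1.34 for Ube2d2 (adjusted p = 0.00144), as was Ube2r2 (0.56, adjusted p = 0.00778), and in Cnot6l-/- Ube2d1 and Ube2d2 were lower than in WT (-0.49 and -1.05, adjusted p = 0.0234 and 0.0117), with unscaled differences of 0.09 and -0.23. In the labelled Btg4-/- group the scaled MII values of Ube2d1 and Ube2r2 were lower than in WT (-0.79 and -0.47, adjusted p = 0.00160 and 0.0398). A scaled rise is relative to genes that fell further.

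Ube2w (chromosome 1, 16559486 to 16609367) encodes an E2 that attaches ubiquitin to the amino terminus of proteins, and its WT change at MII had the largest fitted size among members, within its SE of that of Ube2a. At MI it had 63.14 and 55.20 FPKM in Cnot6l-/- and 66.79 and 77.99 FPKM in the labelled Btg4-/- group, against 9.20 and 6.54 FPKM in WT. Its values at MII were 44.49 and 13.26 FPKM in Cnot6l-/- and 21.22 and 5.30 FPKM in the labelled Btg4-/- group, against 2.95 and 1.51 FPKM in WT. In zygotes it had 4.53 and 2.72 FPKM in Cnot6l-/- and 19.98 and 3.74 FPKM in the labelled Btg4-/- group, against 20.78 and 2.36 FPKM in WT. WT lay below the others at MI and MII and overlapped them in zygotes. At GV it had 197.31 and 113.83 FPKM in Cnot6l-/- and 58.49 and 103.09 FPKM in the labelled Btg4-/- group, against 227.97 and 96.19 FPKM in WT, which overlap. The WT changes were -4.09 ± 0.83 at MI and -5.57 ± 0.83 at MII (adjusted p = 0.000377 and 1.03e-05), and both held after scaling (-2.86 and -3.88). Against WT, Ube2w was higher at MI in Cnot6l-/- (2.78 ± 0.83, adjusted p = 0.00772) and in the labelled Btg4-/- group (3.06 ± 0.83, adjusted p = 0.00363); the call in Cnot6l-/- missed the threshold without WT MI column 3 (adjusted p = 0.0545). At MII it was higher in Cnot6l-/- (3.02 ± 0.83, adjusted p = 0.00688; lost without library 1 of Cnot6l-/- or library 2 of WT, adjusted p = 0.109 and 0.0590), and not called in the labelled Btg4-/- group (1.91 ± 0.83, adjusted p = 0.0993; 0.0367 without its library 2).

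The Ube2w transcript fell in all 3 genotypes: the MII over GV change was -2.57 ± 0.83 in Cnot6l-/- and -2.73 ± 0.83 in the labelled Btg4-/- group (adjusted p = 0.0135 and 0.00718). Both calls were lost after scaling (adjusted p = 0.128 and 0.123) and without library 2 of the group's MII eggs (adjusted p = 0.162 and 0.115) or, in Cnot6l-/-, GV library 1 and, in the labelled Btg4-/- group, GV library 2 (adjusted p = 0.0901 and 0.0628). For Ube2w, the interaction of the MII over GV change with WT was called in neither group. The zygote differences from WT were -0.92 ± 0.83 in Cnot6l-/- and 0.22 ± 0.83 in the labelled Btg4-/- group, not called (adjusted p = 0.663 and 0.897). The first was 0.43 without WT zygote library 1, and the second -1.13 without WT zygote library 2, -0.85 without labelled Btg4-/- zygote library 1 and -0.57 after scaling.

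Ube2e1, Ube2e2 and Ube2e3 encode E2s with an extended amino terminus, and Ube2l3 encodes UBCH7, which serves HECT and RBR ligases. Ube2e3 at MII had 14.02 and 8.72 FPKM in Cnot6l-/- and 13.47 and 8.43 FPKM in the labelled Btg4-/- group, against 4.10 and 3.38 FPKM in WT, without overlap. It was higher than in WT by 1.35 ± 0.35 and 1.31 ± 0.35 (adjusted p = 0.00438 and 0.00888), calls that were lost without library 1 of Cnot6l-/- (adjusted p = 0.0714), and without library 1 of the labelled Btg4-/- group or WT library 2 (adjusted p = 0.132 and 0.0699). Ube2e2 was higher in both at MII too (1.02 and 1.07), calls lost without library 1 of the group (adjusted p = 0.0642 and 0.146) and, in the labelled Btg4-/- group, without WT library 2 (adjusted p = 0.0572). Ube2l3 was higher in Cnot6l-/- (0.97) and not called in the labelled Btg4-/- group (0.54, adjusted p = 0.0971), and Ube2e1 was called in neither (1.15 and 0.06, adjusted p = 0.0598 and 0.967). In WT all 4 were lower at MII than at GV, with changes between -2.16 for Ube2e1 and -2.94 for Ube2l3. After scaling, the Ube2e1 change was not called (-0.32, adjusted p = 0.435).

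**Figure D4:**
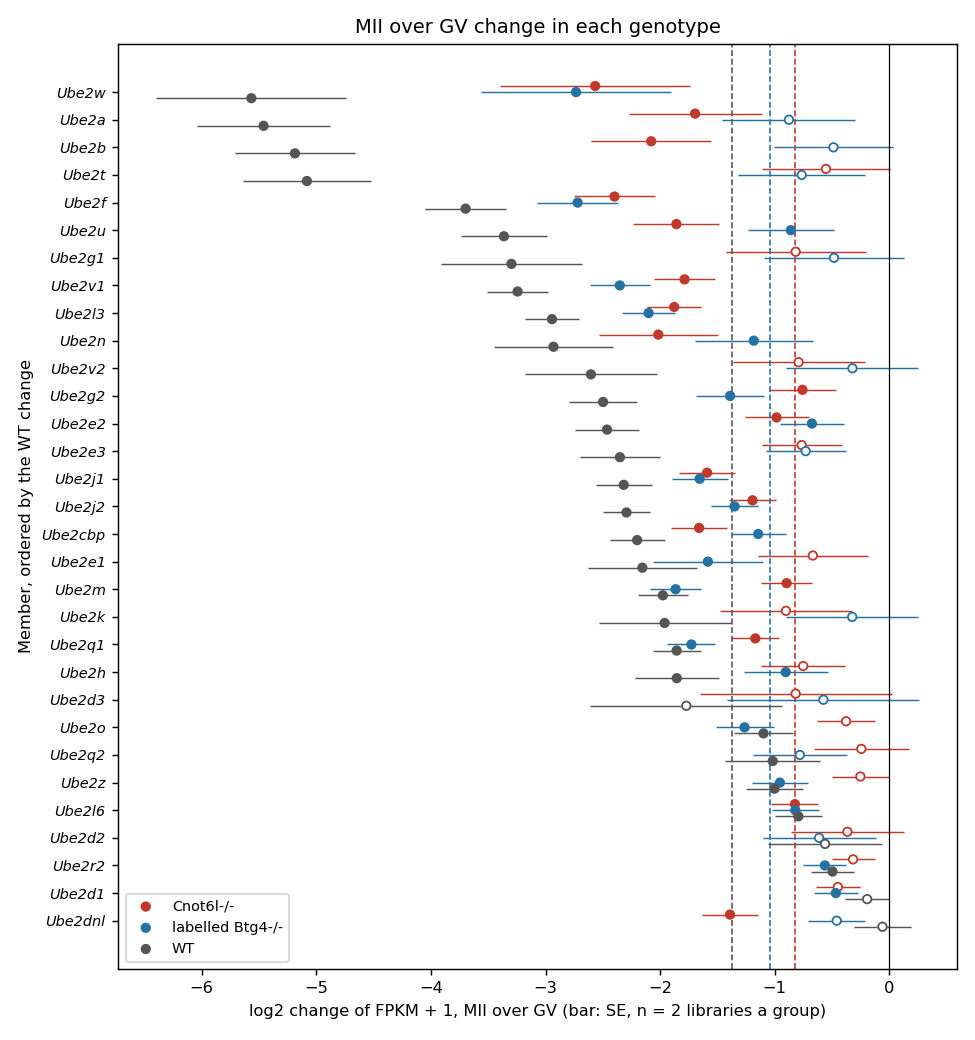
MII over GV change of 31 members in log2(FPKM + 1), ordered by the WT change, in red for Cnot6l-/-, blue for the labelled Btg4-/- group and grey for WT; bars are SE, filled points were called, and dashed lines are all-gene medians of -0.82, -1.04 and -1.37. Ube2w, Ube2a, Ube2b and Ube2t head the WT order, at -5.57 to -5.08, where the Ube2t points of Cnot6l-/- and the labelled Btg4-/- group lie at -0.55 and -0.77.

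The E2s of lysine-48 chains and of degradation at the endoplasmic reticulum are Ube2g1, Ube2g2, Ube2h, Ube2j1, Ube2j2, Ube2k and Ube2r2. In WT, 6 of 7 were lower at MI than at GV and 7 of 7 at MII, beside 65.1% and 83.4% of all genes. At MII, 5 were higher in Cnot6l-/- than in WT and 3 in the labelled Btg4-/- group, beside 44.3% and 28.3% of all genes.

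Ube2g2 (chromosome 10, 77085065 to 77108735), the partner of the ligase gp78 at the endoplasmic reticulum, held its level through MI and fell by MII in WT. At MI it had 31.44 and 35.63 FPKM in Cnot6l-/- and 35.33 and 29.31 FPKM in the labelled Btg4-/- group, against 25.06 and 17.05 FPKM in WT. At GV it had 18.64 and 29.06 FPKM in Cnot6l-/- and 31.34 and 24.66 FPKM in the labelled Btg4-/- group, against 19.60 and 20.32 FPKM in WT. In eggs at MII it had 14.01 and 12.75 FPKM in Cnot6l-/- and 11.53 and 8.65 FPKM in the labelled Btg4-/- group, against 3.11 and 2.35 FPKM in WT. The groups overlapped at GV, and WT lay lowest at MI and MII. The WT change was 0.05 ± 0.29 at MI (adjusted p = 0.895; -0.22 without WT MI column 2), 1.23 and called higher after scaling (adjusted p = 0.00272), and -2.50 ± 0.29 at MII (adjusted p = 6.77e-07), -0.83 and still called after scaling (adjusted p = 0.0234). Against WT it was higher at MII in Cnot6l-/- (1.95 ± 0.29, adjusted p = 4.47e-05) and in the labelled Btg4-/- group (1.57 ± 0.29, adjusted p = 0.000650), and in zygotes (1.68 ± 0.29 and 1.19 ± 0.29, adjusted p = 0.00160 and 0.00738). In zygotes it had 4.89 and 9.03 FPKM in Cnot6l-/- and 3.87 and 5.13 FPKM in the labelled Btg4-/- group, against 1.56 and 1.24 FPKM in WT; both zygote calls were lost when only the libraries compared were fitted (adjusted p = 0.154 and 0.155), and that of the labelled Btg4-/- group without WT library 2 (adjusted p = 0.0667) and after scaling (0.66, adjusted p = 0.156).

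Ube2h (chromosome 6, 30161288 to 30254539) encodes the E2 of the CTLH ligase, which in the fly removes RNA-binding proteins at the oocyte-to-embryo transition. At MII it had 58.05 and 38.69 FPKM in Cnot6l-/- and 46.41 and 24.48 FPKM in the labelled Btg4-/- group, against 18.97 and 16.29 FPKM in WT. In zygotes it had 27.18 and 26.31 FPKM in Cnot6l-/- and 25.08 and 13.98 FPKM in the labelled Btg4-/- group, against 13.98 and 7.75 FPKM in WT. It was higher than WT in Cnot6l-/- at both stages (1.38 ± 0.37 and 1.28 ± 0.37, adjusted p = 0.00565 and 0.0394). The MII call was lost without Cnot6l-/- library 1 (adjusted p = 0.0773), and the zygote call without WT library 2 or either Cnot6l-/- library (adjusted p 0.0967 to 0.338). In the labelled Btg4-/- group the MII difference of 0.90 was not called (adjusted p = 0.0785). Its fall in WT (-1.23 at MI, -1.85 at MII) was not called after scaling (0.01 and 0.02), and at MI not without WT GV library 1 or WT MI column 3 (adjusted p = 0.116 and 0.0703).

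Ube2k, an E2 that extends lysine-48 chains by itself, had 35.11 and 16.96 FPKM in Cnot6l-/- and 37.89 and 13.55 FPKM in the labelled Btg4-/- group at MII, against 15.77 and 9.63 FPKM in WT. WT overlapped the labelled Btg4-/- group and lay below both Cnot6l-/- libraries. The differences were 0.93 ± 0.58 in Cnot6l-/- and 0.83 ± 0.58 in the labelled Btg4-/- group and were not called (adjusted p = 0.204 and 0.324). Its WT fall of -1.96 ± 0.58 at MII (adjusted p = 0.00505) was not called without WT GV library 1 (adjusted p = 0.0616) or after scaling (-0.10). Ube2g1, which in human cells extends chains for a cullin-based ligase, was higher than WT at MII in Cnot6l-/- and in the labelled Btg4-/- group (2.12 and 2.17), as was Ube2j2 (0.86 and 0.70), an E2 of the endoplasmic reticulum membrane. The Ube2g1 calls were lost without library 1 of the group (adjusted p = 0.139 and 0.196) or WT library 2 (adjusted p = 0.0840 and 0.112), and the Ube2j2 call in the labelled Btg4-/- group without the same 2 libraries (adjusted p = 0.203 and 0.109). Ube2j1, of the same membrane, was higher in Cnot6l-/- (0.80, lost without Cnot6l-/- library 1 or either WT library, adjusted p 0.0550 to 0.262) and not called in the labelled Btg4-/- group (0.39, adjusted p = 0.270). Ube2r2, a CDC34-like partner of SCF ligases, was called in neither (0.24 and -0.05, adjusted p = 0.319 and 0.915).

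Members for ubiquitin-like proteins include Ube2m and Ube2f for NEDD8, and Ube2l6 and Ube2z, which also take part in ISG15 and FAT10 conjugation. In WT these 4 were lower at MI and at MII than at GV, as were 65.1% and 83.4% of all genes. At MII, Ube2f and Ube2m were higher in Cnot6l-/- than in WT, and Ube2m in the labelled Btg4-/- group. Of all genes, 44.3% and 28.3% were higher there.

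Ube2f (chromosome 1, 93146895 to 93182602) loads NEDD8 onto CUL5, and Ube2m onto the other cullins. At MI, Ube2f had 13.75 and 15.96 FPKM in Cnot6l-/- and 14.43 and 14.34 FPKM in the labelled Btg4-/- group, against 1.36 and 1.02 FPKM in WT. At MII it had 7.31 and 3.64 FPKM in Cnot6l-/- and 2.38 and 1.22 FPKM in the labelled Btg4-/- group, against 0.56 and 0.56 FPKM in WT. At GV it had 31.21 and 32.26 FPKM in Cnot6l-/- and 13.83 and 20.95 FPKM in the labelled Btg4-/- group, against 22.27 and 16.60 FPKM in WT. The WT libraries lay lowest at MI and MII. Both Cnot6l-/- libraries lay above all others at GV, where Ube2f was not called against WT. The MI differences from WT were 2.86 ± 0.36 in Cnot6l-/- (adjusted p = 2.76e-06) and 2.82 ± 0.36 in the labelled Btg4-/- group (adjusted p = 2.79e-06), and at MII 1.99 ± 0.36 (adjusted p = 0.000229) and 0.81, the second not called (adjusted p = 0.103). The MII over GV change was called in all genotypes, at -2.40 in Cnot6l-/- and -2.72 in the labelled Btg4-/- group, against -3.70 in WT. The interaction with WT was not called for Ube2f in either group.

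Ube2m at MII had 1.64 and 1.78 FPKM in Cnot6l-/- and 0.97 and 1.2 FPKM in the labelled Btg4-/- group, against 0.28 and 0.22 FPKM in WT, and it was higher by 1.12 ± 0.22 and 0.74 ± 0.22 (adjusted p = 0.000556 and 0.0177). These are low levels, where the added 1 FPKM shrinks the fold. The second call was lost after scaling (adjusted p = 0.0899) and under each library left out (adjusted p 0.0560 to 0.0981).

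The other members are Ube2cbp, Ube2o, Ube2q1, Ube2q2, Ube2u, Ube2dnl and Ube2ql1. Ube2o encodes a large enzyme with both E2 and E3 activity. In WT, 4 of the 6 tested were lower at MI and 5 at MII, shares near the 65.1% and 83.4% of all genes. At MII, Ube2u (1.02 and 1.54) and Ube2q1 (0.61 and 0.67) were higher than WT in both groups, Ube2o in Cnot6l-/- (0.66) and Ube2cbp in the labelled Btg4-/- group (0.93). These are 3 of the 6 tested in each group, where 44.3% and 28.3% of all genes were higher. The Cnot6l-/- calls were lost for Ube2u without any 1 of the 4 libraries, for Ube2q1 without either WT library or Cnot6l-/- library 1, and for Ube2o without WT library 1 or Cnot6l-/- library 2 (adjusted p 0.0842 to 0.261). The calls in the labelled Btg4-/- group were lost without its library 1 (adjusted p 0.101 to 0.181), and for Ube2q1 also without either WT library (adjusted p = 0.103 and 0.0900). After scaling, the calls of Ube2u and Ube2o in Cnot6l-/- and of Ube2cbp in the labelled Btg4-/- group were lost (0.76, 0.29 and 0.36, adjusted p = 0.0656, 0.458 and 0.338). Ube2dnl had 2.1 and 3.48 FPKM in Cnot6l-/- GV oocytes and 0 and 0.89 FPKM in those labelled Btg4-/-, against 0 and 0.12 FPKM in WT. Its difference in Cnot6l-/- from WT at GV was 1.82 ± 0.25, which is no test, since it passed the filter only because of those 2 libraries; it is the 1 member counted as higher there. Ube2ql1 reached 0.50 FPKM at most, in a GV library labelled Btg4-/-.

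For the rest of the pathway, 19 genes of ubiquitin, ubiquitin-like proteins, their E1 enzymes and other E2s were tested. In WT, 16 of the 19 were lower at MII than at GV, with a median of -1.81, and none was higher, a share near the 83.4% of all genes. At MII, 8 were higher than WT in Cnot6l-/- and 7 in the labelled Btg4-/- group, with medians of 0.77 and 0.79 and none lower, where 44.3% and 28.3% of all genes were higher. After scaling, 18 were tested: 7 were lower and 1 higher in WT at MII, and against WT 7 were higher in Cnot6l-/- and 5 higher and 1 lower in the labelled Btg4-/- group. Rps27a and Sumo3 had the lowest WT changes at MII (-7.27 and -4.94). The WT change of Uba6 was -0.83 (adjusted p = 0.0867). Rps27a and Sumo3 both were higher at MII in Cnot6l-/- (4.25 and 3.20) and in the labelled Btg4-/- group (2.92 and 1.66); Rps27a encodes ubiquitin fused to a ribosomal protein, and near-identical copies leave its level uncertain. Uba1, the main ubiquitin E1, was called in neither group at MII (0.19 and 0.79, adjusted p = 0.651 and 0.0629). In zygotes Sumo2 was higher than in WT in Cnot6l-/- and in the labelled Btg4-/- group (2.53 and 1.77, adjusted p = 0.00210 and 0.00979), and Rps27a in the labelled Btg4-/- group (2.53, adjusted p = 3.39e-05).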

How the data were processed

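RNA-seq libraries were made with Smart-Seq2 and Tn5 per the labels' protocols. The authors deposited FPKM values per gene; the submitters' processing notes name CASAVA 1.8, TopHat2 2.0.11, Bowtie2 2.1.0, Cufflinks 2.2.1 and mm9, with no role given. Depth per library and how reads with several matches were handled are not given in the sources used here. From these FPKM, log2(FPKM + 1) was fitted with limma 3.58.1 (R 4.3.3) as 12 group means with 12 residual degrees of freedom and an intensity trend, over 10884 of 23235 genes that averaged 1 FPKM or more in some group; p-values are two-sided and Benjamini-Hochberg adjusted over all of them. The alternatives used median-ratio scaling, a pseudocount of 0.1, every gene unfiltered, only the groups compared, a replicate block and each library left out. Comparisons of Cnot6l-/- with labelled Btg4-/- were added after the values were known. Members, role groups and the pathway list were chosen with earlier results of these data known. Library values are given for the 3 highest and 3 lowest changes among called members that averaged at least 10 FPKM in the higher group and did not overlap, in WT MI and MII over GV, WT zygote over MII and each genotype over WT, and for members with textbook roles; 1 member is counted in the totals but its values are not reported here. Of other pathway genes the rule names the 2 highest and 2 lowest changes of a comparison, printed here in part; others were chosen after their values were seen. Further members are named after their values were seen. MI libraries carry column numbers 2 and 3. Motifs came from gencode vM1 on NCBIM37, the mm9 assembly. Single-library tables were not used. Figures used Python 3.11.15 and matplotlib 3.10.9.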

Additional observations from a re-analysis of the deposited data

Results flagged for a closer look

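A test of the difference itself singled out the members whose MII over GV change was not the same as in WT, with limma's interaction term on log2(FPKM + 1), SE after ± and p adjusted over all genes tested. For Cnot6l-/- minus WT these were Ube2t at 4.53 ± 0.79 (adjusted p = 0.000482), Ube2a at 3.76 ± 0.82 (adjusted p = 0.00284), Ube2b at 3.11 ± 0.74 (adjusted p = 0.00519), Ube2g1 at 2.48 ± 0.87 (adjusted p = 0.0451), Ube2g2 at 1.74 ± 0.42 (adjusted p = 0.00542), Ube2e3 at 1.59 ± 0.49 (adjusted p = 0.0257), Ube2u at 1.51 ± 0.53 (adjusted p = 0.0474), Ube2e2 at 1.48 ± 0.39 (adjusted p = 0.011), Ube2v1 at 1.46 ± 0.37 (adjusted p = 0.00836), Ube2j2 at 1.10 ± 0.29 (adjusted p = 0.00975), Ube2m at 1.08 ± 0.31 (adjusted p = 0.0171), Ube2l3 at 1.07 ± 0.33 (adjusted p = 0.0259), Ube2dnl at -1.33 ± 0.35 (adjusted p = 0.00989). The Ube2dnl value is no independent result, since that gene passed the filter only through the Cnot6l-/- GV libraries, where it is high. For the labelled Btg4-/- group minus WT they were Ube2b at 4.70 ± 0.74 (adjusted p = 0.000449), Ube2a at 4.58 ± 0.82 (adjusted p = 0.00127), Ube2t at 4.32 ± 0.79 (adjusted p = 0.00149), Ube2g1 at 2.81 ± 0.87 (adjusted p = 0.0374), Ube2u at 2.50 ± 0.53 (adjusted p = 0.00425), Ube2e2 at 1.79 ± 0.39 (adjusted p = 0.00553), Ube2e3 at 1.62 ± 0.49 (adjusted p = 0.0352), Ube2cbp at 1.06 ± 0.34 (adjusted p = 0.0481), Ube2j2 at 0.94 ± 0.29 (adjusted p = 0.0361). With some single library left out, the calls of Ube2dnl, Ube2e3, Ube2g1, Ube2l3, Ube2m, Ube2u and Ube2v1 were lost for Cnot6l-/-, and those of Ube2cbp, Ube2e3, Ube2g1 and Ube2j2 for the labelled Btg4-/- group.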

How the results depend on the processing

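The values of single members counted here are those called in the fit of all libraries and those named in the text. Other values that were not called were left out, so few could become stronger. Of the values counted, the direction and call were kept by 226 with a pseudocount of 0.1 (7 not), 196 with no filter (37 not), 183 with only the libraries compared (47 weaker, 3 stronger) and 127 after median-ratio scaling (74 weaker, 30 reversed, 2 stronger). Scaling moved the counts of called members to 15 in WT MI over GV, 4 in WT zygote over MII, 6 in Cnot6l-/- and 7 in labelled Btg4-/- MII over GV, 10 and 8 for the same genotypes over WT at MI, 7 for the Cnot6l-/- interaction and 2 for Cnot6l-/- over labelled Btg4-/- at MII. In these last 2 comparisons 15% and 13.9% of genes were called higher after scaling, and 0.733% and 4.27% lower. With no filter the counts were 1 and 6 for labelled Btg4-/- over WT at GV and zygote, and 0 and 2 for Cnot6l-/- over labelled Btg4-/- at MII and zygote. At that GV comparison 5.82% of genes were called. With only the libraries compared they were 0 for Cnot6l-/- over WT in zygotes, 9 and 0 for labelled Btg4-/- over WT at MII and zygote, 7 and 3 for the interactions, and 0, 8 and 0 for Cnot6l-/- over labelled Btg4-/- at GV, MI and MII. A pseudocount of 0.1 gave 1 for WT zygote over MII, where 11.3% of genes were called. It gave 1 and 2 for Cnot6l-/- over labelled Btg4-/- at GV and MII. A count in this paragraph without a share of genes beside it cannot be told apart from a change over the whole table. That includes the counts with 1 library left out, where the share of genes called moved too. With 1 library left out the counts ranged over 19 to 26 (WT MI over GV), 25 to 29 (WT MII over GV), 0 to 0 (WT zygote over MII), 13 to 19 and 13 to 24 (Cnot6l-/- and labelled Btg4-/- MII over GV), 1 to 2, 12 to 18, 10 to 19 and 2 to 5 (Cnot6l-/- over WT, GV to zygote), 0 to 2, 18 to 23, 5 to 15 and 4 to 13 (labelled Btg4-/- over WT), 8 to 16 and 5 to 10 (interactions), and 1 to 4, 0 to 0, 0 to 1 and 0 to 5 (Cnot6l-/- over labelled Btg4-/-). With the library number as a replicate block the counts were 29, 0, 21 and 21 for WT MII over GV, WT zygote over MII and the MII over GV changes of Cnot6l-/- and labelled Btg4-/-, 1, 22 and 3 for Cnot6l-/- over WT and 0, 17 and 12 for labelled Btg4-/- over WT at GV, MII and zygote, and 14 and 11 for the interactions. At MI, where the table's column number was the block, they were 28 and 31 over WT and 4 for Cnot6l-/- over labelled Btg4-/-. In those 2 comparisons with WT at MI, 74.5% and 82.9% of all genes were called. The block called 87.1%, 4.55%, 63.4% and 79.8% of all genes in the first 4 comparisons, in the order given. For Cnot6l-/- over WT it called 10%, 48.3% and 9.36% at GV, MII and zygote. Deviations of same-numbered libraries correlated between -0.31 and 0.71 over 36 pairs of groups, 28 of them over 0.1. Those 28, between 0.28 and 0.71, are all the pairs without the labelled Btg4-/- GV oocytes, so same-numbered libraries deviated together outside that group; no pair with it, and none at MI, passed 0.1, and the labels give the numbers no shared source. The block gave calls to Ube2d3 in WT MII over GV, Ube2n in Cnot6l-/- and Ube2w in labelled Btg4-/- over WT at MII (adjusted p = 0.00784, 0.0291 and 0.0237), and at MI to Ube2t in both groups over WT (adjusted p = 0.0186 and 0.00360). It took those of Ube2u in labelled Btg4-/- MII over GV and in the Cnot6l-/- interaction, and of Ube2cbp in the labelled Btg4-/- interaction (adjusted p = 0.0511, 0.0519 and 0.0646). Signs turned under scaling, which expresses changes relative to the genes used for it. In labelled Btg4-/- MII over GV, Ube2a was 0.34, Ube2b 0.71, Ube2d1 0.25, Ube2e2 0.18, Ube2h 0.31, Ube2r2 0.085, Ube2t 0.48, Ube2u 0.11. In WT MI over GV, Ube2d1 was 0.62, Ube2h 0.0091, Ube2v1 0.059. In WT MII over GV, Ube2d1 was 1.03, Ube2d2 1.34, Ube2d3 0.16, Ube2h 0.025, Ube2q2 0.58, Ube2r2 0.56, Ube2z 0.33. In Cnot6l-/- over WT at MII, Ube2d1 was -0.49, Ube2d3 -0.18. In labelled Btg4-/- over WT at MI, Ube2d1 was -0.28, Ube2d2 -0.017, Ube2r2 -0.026, Ube2t -0.18, Ube2z -0.015. In labelled Btg4-/- over WT at MII, Ube2d3 was -0.66. In Cnot6l-/- MII over GV, Ube2g2 was 0.22, Ube2t 0.48. In Cnot6l-/- over WT at MI, Ube2t was -0.18. In labelled Btg4-/- over WT at zygote, Ube2w was -0.57. With 1 library left out, signs turned within ranges of -1.04 to 0.063 for Ube2b in labelled Btg4-/- MII over GV, -0.11 to 0.30 for Ube2d1 in Cnot6l-/- over WT at MII, -1.15 to 0.030 for Ube2d2 in WT MII over GV, -0.71 to 0.25 for Ube2d2 in Cnot6l-/- over WT at MII, -0.25 to 1.54 for Ube2d3 in Cnot6l-/- over WT at MII, -0.93 to 1.07 for Ube2d3 in labelled Btg4-/- over WT at MII, -0.22 to 0.31 for Ube2g2 in WT MI over GV, -0.041 to 0.42 for Ube2t in labelled Btg4-/- over WT at GV, -2.26 to 0.43 for Ube2w in Cnot6l-/- over WT at zygote, -1.13 to 1.57 for Ube2w in labelled Btg4-/- over WT at zygote. The cause was not tested. FPKM carry no read depth, so low members cannot be given counting limits.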
